A study of Mus musculus with 16 samples.

Results

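Bhlhe40 and 9 further genes of the circadian clock were followed in mouse embryonic fibroblasts given an iron chelator, a histone deacetylase inhibitor or both. The genes are Bhlhe40, Bhlhe41, Per1, Per2, Per3, Cry1, Cry2, Nr1d1, Nr1d2 and Dbp. They were chosen by name, and every probe set that carries 1 of these symbols was taken. That gave 20 probe sets for the 10 genes, of 18193 genes with a probe set of a single symbol in the whole data set.

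RNA of 4 lines of primary fibroblasts from e14.5 embryos was hybridised to 16 Affymetrix mouse arrays, 1 for each line and treatment. In the 2 triCH1 lines, 3 of the 4 alleles of the acetyltransferases CBP and p300 lack the CH1 domain, which binds the transactivation domain of the hypoxia-inducible factor HIF-1α. The line triCH1flox1 has this deletion in both p300 alleles and 1 CBP allele, and its other CBP allele is conditional. The line triCH1flox2 has it in both CBP alleles and 1 p300 allele, and its other p300 allele is conditional. The 2 flox lines keep the CH1 domain, and each carries 1 conditional allele, which is a CBP allele in flox1 and a p300 allele in flox2. All 4 lines, the flox lines included, were infected with Cre adenovirus at passage 3 and then expanded. The treatments were TSA_DP (trichostatin A at 100 ng/ml, then dipyridyl at 100 µM after 30 min), TSA (trichostatin A alone), DP (dipyridyl alone) and EtOH (vehicle given both times), with lysis 3 h later under normal oxygen. Trichostatin A inhibits histone deacetylases, and dipyridyl binds the iron that the HIF prolyl hydroxylases need. Each of the 8 groups of class and treatment thus held 2 lines of unlike genotype, with no repeat culture of a line, so that the spread between lines includes their genotype.

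The arrays gave median signals between 103 and 154 at a common trimmed mean of 500. The ratio of the 3′ to the 5′ Gapdh probe sets, a sign of RNA integrity, was 2.59 on the flox1 EtOH array and between 0.907 and 1.26 on the other 15. Of 10 fibroblast markers, 9 had a signal of at least 200 on every array, and the exception, Dcn, ran from 97.6 to 496. All 5 endothelial markers stayed under 200 on every array. Each of the 5 macrophage markers passed 200 on some arrays but not on all, with the highest signal, 375, for Csf1r. Of the 5 skeletal muscle markers, Myod1 and Myog stayed under 200 on every array, and the highest signal was 493, for Des. Of the 5 neural markers, Gfap and Rbfox3 stayed under 200 on every array, and the highest signal was 641, for Tubb3. Of the 5 epithelial markers, Cdh1 and Krt8 stayed under 200 on every array, Krt18 ran from 80.4 to 477, Epcam from 199 to 1121 and Krt19 from 197 to 1179. Of the 3 adipocyte markers with a probe set, Adipoq stayed under 200 on every array, Lep ran from 7.6 to 276 and Fabp4 from 363 to 1487. By the barcodes in the labels the arrays form 2 series: 4 arrays (TSA_DP, TSA and DP of triCH1flox1 and TSA_DP of flox2) and the other 12. Xist ran from 1751 to 5389 on the triCH1 arrays and from 10.1 to 111 on the flox arrays, and the Y-linked Eif2s3y from 8.9 to 82.9 on the triCH1 arrays and from 974 to 1519 on the flox arrays. The triCH1 genotypes and this difference in sex cannot be told apart. In the EtOH arrays Crebbp, which encodes CBP, had signals of 1437 and 2500 in triCH1flox1 and triCH1flox2, and of 1425 and 2022 in flox1 and flox2. Ep300, which encodes p300, had signals of 1319 and 941 in the triCH1 lines and 1054 and 645 in the flox lines. It is not known whether these probe sets lie in the deleted parts, so these levels do not check the genotypes.

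The circadian clock is a feedback loop of transcription that runs in most cells, cultured fibroblasts included. The factors CLOCK and BMAL1 bind E-boxes and drive the Per and Cry genes, whose proteins then block CLOCK and BMAL1. Bhlhe40 and Bhlhe41 (also known as Dec1 and Dec2) are basic helix-loop-helix repressors that bind the same E-boxes. Nr1d1 and Nr1d2 encode the heme-binding REV-ERB repressors of a second loop, which act on Bmal1, and Dbp encodes an activator that binds D-boxes. Bhlhe40 is also a known target of HIF-1, whose core binding letters lie within the E-box CACGTG. Cells of an unsynchronised culture are at mixed phases of the clock, and each line and treatment was sampled here at a single time.

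Promoters of the genes that changed are shown because the E-box and the HIF core are the letters through which the clock factors and HIF act. They were taken from RefSeq (build GRCm38.p6) as 300 bases, 250 before and 50 after the annotated start, and 8 of the 10 genes were matched, with 9 promoters. Bhlhe40 and Per2 were not matched. Letters were searched on both strands: CACGTG (the E-box), ACGTG (the HIF core, which lies within CACGTG), TTATGTAA (a D-box), TGACGT (a cAMP response element) and TAGGTCA (the core of a REV-ERB and ROR element). Over all 32851 promoters of the table, CACGTG was present in 7.15%, ACGTG in 19.6%, TTATGTAA in 0.938%, TGACGT in 7.51% and TAGGTCA in 2.61%.

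The promoters of Cry1 (chr10:85185005-85185304, minus strand), Per1 (its first start, chr11:69098699-69098998, plus strand) and Cry2 (chr2:92434020-92434319, minus strand) stand for the genes that rose with trichostatin A. That of Ciart (chr3:95882179-95882478, minus strand), a clock repressor outside the 10 genes, is shown because it holds 3 E-boxes. Capitals mark CACGTG and, outside it, ACGTG read on the printed strand.
Cry1: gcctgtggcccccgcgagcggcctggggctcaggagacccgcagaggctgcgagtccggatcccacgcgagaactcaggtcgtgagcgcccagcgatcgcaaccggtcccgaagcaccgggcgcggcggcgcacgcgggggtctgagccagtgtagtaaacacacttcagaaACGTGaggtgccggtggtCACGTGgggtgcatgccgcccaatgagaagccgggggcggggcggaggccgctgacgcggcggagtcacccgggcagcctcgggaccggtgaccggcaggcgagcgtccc
Per1: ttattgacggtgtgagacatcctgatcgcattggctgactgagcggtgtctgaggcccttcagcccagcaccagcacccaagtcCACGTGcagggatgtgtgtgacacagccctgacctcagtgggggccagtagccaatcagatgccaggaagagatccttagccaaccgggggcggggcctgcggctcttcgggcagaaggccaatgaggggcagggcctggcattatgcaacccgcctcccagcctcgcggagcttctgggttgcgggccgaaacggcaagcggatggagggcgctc
Cry2: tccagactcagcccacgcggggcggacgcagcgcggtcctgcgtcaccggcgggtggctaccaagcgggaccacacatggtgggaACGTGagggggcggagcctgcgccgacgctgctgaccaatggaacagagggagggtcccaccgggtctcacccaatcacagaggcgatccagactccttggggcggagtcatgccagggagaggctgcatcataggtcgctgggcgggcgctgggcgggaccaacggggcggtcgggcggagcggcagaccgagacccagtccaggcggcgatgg
Ciart: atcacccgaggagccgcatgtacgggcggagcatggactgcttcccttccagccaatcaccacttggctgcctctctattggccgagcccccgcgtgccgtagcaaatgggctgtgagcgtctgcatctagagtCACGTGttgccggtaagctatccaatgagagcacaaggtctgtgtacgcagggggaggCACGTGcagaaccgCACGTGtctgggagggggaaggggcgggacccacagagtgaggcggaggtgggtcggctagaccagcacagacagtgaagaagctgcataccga

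Of the 9 promoters of the members, 3 held CACGTG (Cry1, Per1 and Bhlhe41, 1 copy each), 6 held ACGTG, 1 held TTATGTAA (Per3, 2 copies) and 1 held TGACGT (the second start of Per1). None of the 9 held TAGGTCA, and the Nr1d2 promoter held none of the 5 motifs. Among 24 promoters of the other clock genes, 3 held CACGTG, namely that of Ciart and both of Tef, and 7 held ACGTG. These matches describe the letters in these windows and say nothing of binding.

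Bhlhe40 was higher with dipyridyl in all 4 lines, and the change was larger in the flox lines. Its single probe set (1418025_at) had signals of 3382 in triCH1flox1, 2666 in triCH1flox2, 4935 in flox1 and 5467 in flox2 on the DP arrays. On the EtOH arrays the signals were 1670 in triCH1flox1, 1076 in triCH1flox2, 888 in flox1 and 688 in flox2. Every DP signal was above every EtOH signal, and the order of the classes was turned: the flox lines were the higher ones with dipyridyl and the lower ones with vehicle. The means over the 4 lines were 4112 ± 1308 with dipyridyl and 1081 ± 424 with vehicle (SD, n = 4 lines each). Changes were fitted with limma on log2(signal + 50), a scale that understates the change of weak probe sets. Dipyridyl raised Bhlhe40 by 1.90 ± 0.16 (log2, SE), which is 3.72-fold, with adjusted p = 2.23e-06. It was the 37th largest rise among 19895 probe sets tested. A probe set was tested where it reached a signal of 200 on at least 2 arrays, and it passed at an adjusted p under 0.05.

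**Figure D1:**
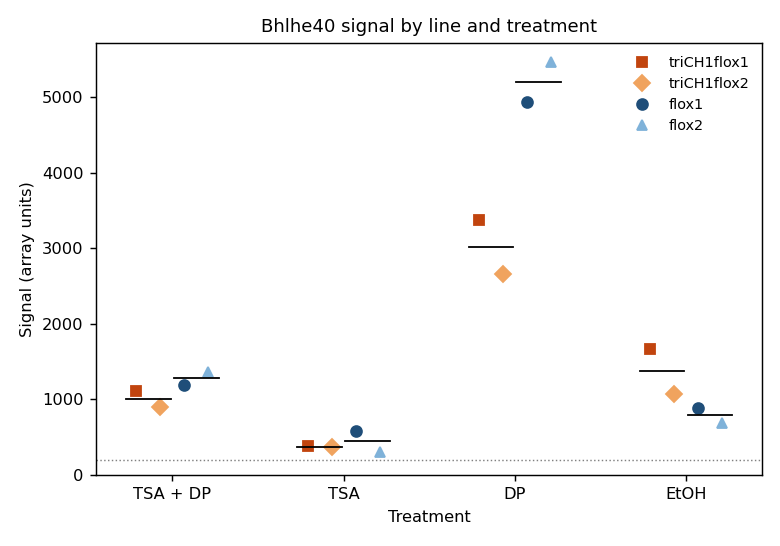
Signal of the Bhlhe40 probe set (linear scale, from 0) on each of the 16 arrays, by treatment and line, with black bars at the mean of the 2 lines of a class and a dotted line at a signal of 200. The 4 DP arrays lie between 2666 and 5467, above the other 12, and the 4 TSA arrays between 306 and 582.

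In the triCH1 lines alone, the DP signals of Bhlhe40 averaged 3024 ± 506 and the EtOH signals 1373 ± 420 (SD, n = 2 lines each). In the flox lines, the DP signals averaged 5201 ± 376 and the EtOH signals 788 ± 141 (SD, n = 2 lines each). Line by line the log2 change with dipyridyl was 1.00 in triCH1flox1 and 1.27 in triCH1flox2, against 2.41 in flox1 and 2.90 in flox2, so that the classes did not overlap. The fitted rise was 2.19-fold in the triCH1 lines (log2 1.13 ± 0.23, adjusted p = 0.0364) and 6.30-fold in the flox lines (log2 2.66 ± 0.23, adjusted p = 3.79e-06). The triCH1 response minus the flox response was -1.52 (log2, SE 0.32, 95% interval -2.20 to -0.84). Its unadjusted p was 0.000229, and over all probe sets the adjusted p was 0.253, which did not pass. Only 3 of the 19895 probe sets, 0.0151%, passed in that comparison, all with the smaller response in the triCH1 lines. Both the higher DP signals and the lower EtOH signals of the flox lines enter this difference.

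In the triCH1 lines Bhlhe40 did not pass when either line was left out (log2 1.27, adjusted p = 0.268 without triCH1flox1, and log2 1.00, adjusted p = 0.86 without triCH1flox2), although the change stayed near 1.13. Each of these values rests on 1 line, whose spread is assumed to be that of the other groups. The DP and EtOH arrays of triCH1flox1 are of different barcode series, and those of triCH1flox2 are of the same series. With the series as a term the change in the triCH1 lines was 1.10 and did not pass (adjusted p = 0.2). Without the flox1 EtOH array, whose Gapdh ratio stood apart, the rise of Bhlhe40 was 1.94 over the 4 lines (adjusted p = 1.05e-05) and 2.75 in the flox lines (adjusted p = 6.26e-05), and the difference between classes was -1.62 (adjusted p = 0.522).

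Trichostatin A alone had the opposite sign. Bhlhe40 had signals of 376 in triCH1flox1, 373 in triCH1flox2, 582 in flox1 and 306 in flox2 on the TSA arrays, all below the lowest EtOH signal of 688. The means over the 4 lines were 409 ± 119 with TSA and 1081 ± 424 with EtOH (SD, n = 4 lines each). It fell 2.40-fold (log2 -1.26 ± 0.16, SE, adjusted p = 4.35e-05). The log2 change was -2.01 in triCH1flox1 and -1.41 in triCH1flox2, against -0.57 in flox1 and -1.05 in flox2. The lines thus lay closer to each other with TSA than with vehicle, and the difference between classes in this response was not tested. The TSA and EtOH arrays of triCH1flox1 are of different barcode series, and those of each other line are of the same series.

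With both agents, the mean of Bhlhe40 over the 4 lines was near that with vehicle, while the classes differed in direction. The TSA_DP signals were 1116 in triCH1flox1, 895 in triCH1flox2, 1186 in flox1 and 1368 in flox2, with a mean of 1141 ± 195 (SD, n = 4 lines). All 4 were above every TSA signal and below every DP signal, and they overlapped the EtOH signals. Set beside EtOH, the log2 change was -0.56 in triCH1flox1 and -0.25 in triCH1flox2, against 0.40 in flox1 and 0.94 in flox2. Both triCH1 lines were thus lower than with vehicle and both flox lines higher, which was not tested. Against TSA alone the rise was 2.63-fold (log2 1.39 ± 0.16, SE, adjusted p = 0.0004), the 7th largest of the 19895 probe sets, of which 0.136% passed in either direction. By line this log2 rise was 1.45 in triCH1flox1 and 1.16 in triCH1flox2. It was 0.97 in flox1 and 2.00 in flox2, whose TSA_DP and TSA arrays are of different barcode series. In this rise the classes overlapped. It did not pass without triCH1flox1 (log2 1.32, adjusted p = 0.0518). The dipyridyl response under TSA minus that without TSA was -0.50 (log2, 95% interval -0.98 to -0.02), with an unadjusted p of 0.0422 and an adjusted p of 0.878, which did not pass. The DP and TSA comparisons share the EtOH arrays, and both enter this difference.

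Ordered by mean signal of the 2 lines, Bhlhe40 was highest in flox DP (5201 ± 376), then triCH1 DP (3024 ± 506), triCH1 EtOH (1373 ± 420), flox TSA_DP (1277 ± 129), triCH1 TSA_DP (1006 ± 156), flox EtOH (788 ± 141), flox TSA (444 ± 195) and triCH1 TSA (375 ± 1.91, SD, n = 2 lines each). The signals of triCH1 EtOH overlapped those of flox TSA_DP and of triCH1 TSA_DP, and the signals of triCH1 TSA lay within the range of flox TSA. The other neighbours did not overlap, although triCH1 TSA_DP and flox EtOH nearly touched (895 against 888). Averaged over the 4 treatments, the triCH1 lines minus the flox lines gave -0.13 (log2, adjusted p = 0.811).

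Bhlhe41, the paralogue of Bhlhe40, was under a signal of 200 on all 16 arrays with both of its probe sets, which ran from 10.1 to 177 and from 11.3 to 85.4. Neither was tested, and no change can be given for it at these signals.

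Over the member genes, 12 of the 20 probe sets, from 9 of the 10 genes, were tested. With dipyridyl over the 4 lines 1 of the 12 passed, Bhlhe40, where 1.19% of all tested probe sets passed. In the triCH1 lines it was again Bhlhe40 alone, higher, where 0.417% of all passed, 0.412% higher and 0.00503% lower. In the flox lines it was Bhlhe40 as well, where 1.03% of all passed, 0.875% higher and 0.151% lower. With trichostatin A 5 of the 12 passed, 3 higher and 2 lower, where 22.2% of all tested probe sets passed, 12.3% higher and 9.9% lower. For the dipyridyl response under TSA 1 of the 12 passed, once more Bhlhe40, where 0.116% of all were higher and 0.0201% lower. The median log2 change of the 12 was 0.25 with dipyridyl and 0.26 with trichostatin A, beside -0.01 and 0.02 over all tested probe sets. These arrays hold RNA of whole cultures, in which fewer cells of a type and less RNA per cell cannot be told apart.

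**Figure D2:**
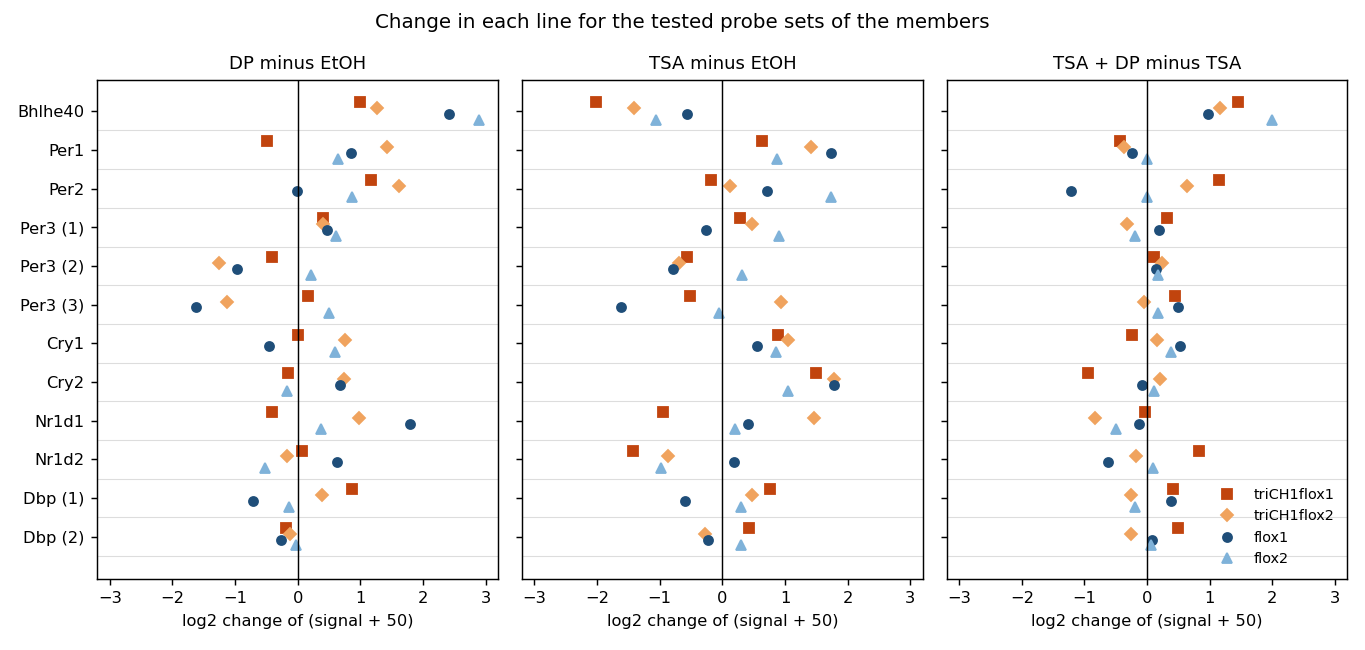
Change of log2(signal + 50) in each of the 4 lines (points) for the 12 tested member probe sets, in 3 panels: DP minus EtOH, TSA minus EtOH, and TSA_DP minus TSA. With dipyridyl all 4 points of Bhlhe40 lie above 0, between 1.00 and 2.90, and with trichostatin A all 4 lie below 0, between -2.01 and -0.57.

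The cryptochrome genes Cry1 and Cry2, whose proteins are the main repressors of CLOCK and BMAL1, were both higher with trichostatin A. Cry2 (1426383_at) had signals of 1172 in triCH1flox1, 866 in triCH1flox2, 1008 in flox1 and 1099 in flox2 with TSA, and of 385, 215, 257 and 504 with EtOH in the same order of lines. Every TSA signal was above every EtOH signal, and the rise was 2.89-fold (log2 1.53 ± 0.21, SE, adjusted p = 9.03e-05). Cry1 (1433733_a_at) had signals of 1012, 789, 708 and 813 with TSA, and of 524, 357, 465 and 425 with EtOH, again without overlap. Its rise was 1.79-fold (log2 0.84 ± 0.18, SE, adjusted p = 0.00331), between 0.56 and 1.05 by line.

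With dipyridyl alone neither Cry gene passed. Cry1 had signals of 524, 633, 327 and 665 on the DP arrays, with a change of 0.22 (95% interval -0.16 to 0.61, adjusted p = 0.69), and its DP and EtOH signals overlapped. Cry2 had signals of 340.1, 394, 438 and 442 on the DP arrays, with a change of 0.27 (95% interval -0.18 to 0.72, adjusted p = 0.675). On the TSA_DP arrays Cry1 had signals of 848, 887, 1048 and 1082, and Cry2 of 586, 1004, 952 and 1190.4. All of these were above every EtOH signal of the same gene. They overlapped the TSA signals, with Cry2 in triCH1flox1 the lowest and below every TSA signal, and Cry1 in both flox lines above every TSA signal.

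Per1, a period gene that also responds early to cAMP and serum, was higher with trichostatin A in each line. Its probe set (1449851_at) had signals of 413 in triCH1flox1, 425 in triCH1flox2, 481 in flox1 and 502 in flox2 with TSA, against 248, 129, 110 and 253 with EtOH. The groups did not overlap, and the rise was 2.24-fold (log2 1.16 ± 0.26, SE, adjusted p = 0.0042). The flox1 EtOH signal was the lowest of all 16; without the flox1 line the log2 rise was 0.95 and did not pass (adjusted p = 0.0729). With dipyridyl the signals were 163, 430.0, 237 and 421, which overlapped those with EtOH, and the change of 0.61 (unadjusted p = 0.0328) had an adjusted p of 0.373.

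Nr1d2, which encodes REV-ERBβ, was lower with trichostatin A. Its stronger probe set (1416958_at) had signals of 882 in triCH1flox1, 1721 in triCH1flox2, 1793 in flox1 and 1167 in flox2 with TSA, and of 2446, 3177, 1578 and 2343 with EtOH. The groups overlapped through flox1, the line in which the signal was higher with TSA. Over the 4 lines the fall was 1.71-fold (log2 -0.77 ± 0.18, SE, adjusted p = 0.00667). It did not pass without triCH1flox1 (log2 -0.63, adjusted p = 0.0747) or without flox2 (log2 -0.48, adjusted p = 0.0904), and without the flox1 EtOH array the log2 change was -0.998 (adjusted p = 0.000978). With both agents the signals were 1604, 1515, 1146 and 1255, all below every EtOH signal but that of flox1 and 3 of them below that one too. With dipyridyl alone they were 2563, 2826, 2453 and 1617, and the fitted change was 0 (95% interval -0.39 to 0.39). The other Nr1d2 probe set was under 200 on all 16 arrays and was not tested.

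**Figure D3:**
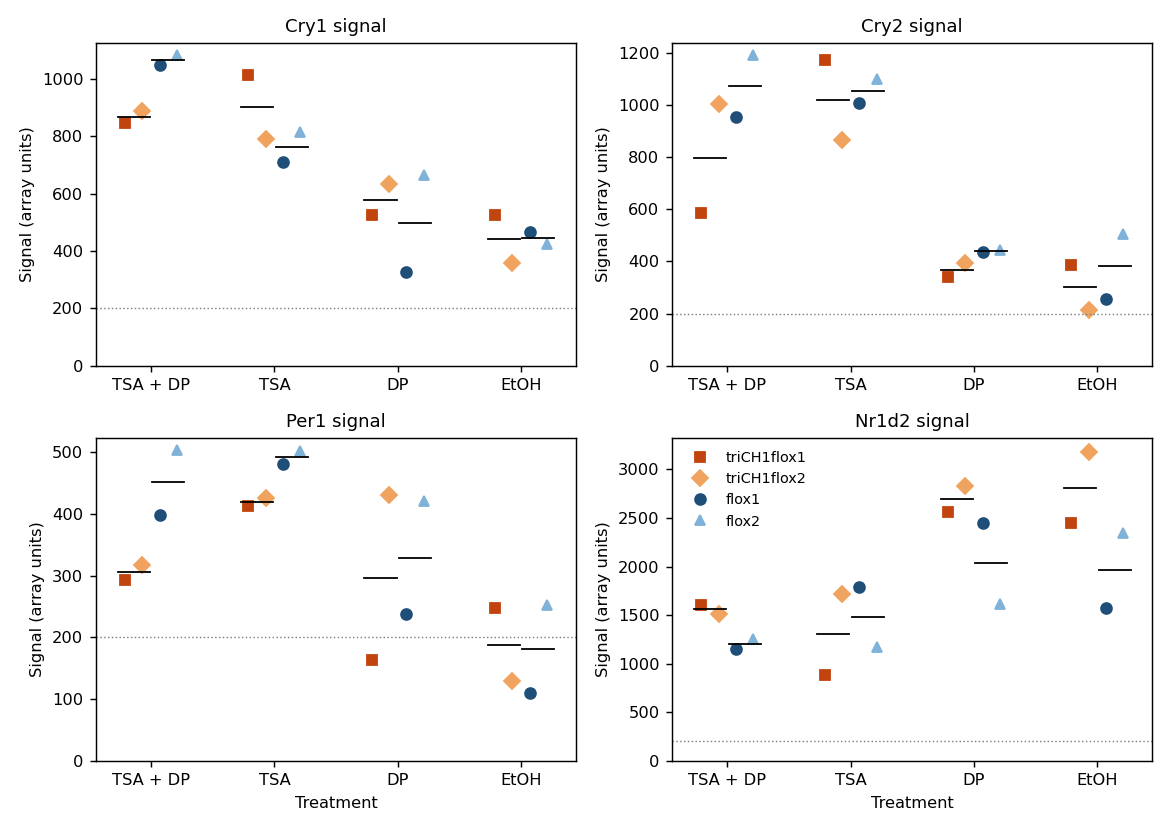
Signals (linear scale, from 0) of Cry1, Cry2, Per1 and Nr1d2 on each of the 16 arrays by treatment and line, with black bars at the mean of the 2 lines of a class and a dotted line at 200. For Cry1, Cry2 and Per1 every TSA array lies above every EtOH array, and for Nr1d2 the TSA array of flox1 (1793) lies above its EtOH array (1578).

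The other members did not pass in any of the 8 comparisons made. Per2, a period gene (1417602_at, 1 of 3 probe sets tested), had signals of 318 in triCH1flox1, 209.8 in triCH1flox2, 69.0 in flox1 and 83.2 in flox2 with dipyridyl, against 113, 35.1, 70.1 and 22.7 with EtOH. It was 0.91 higher on the log2 scale (unadjusted p = 0.0264, adjusted p = 0.353), with 3 of 4 lines higher and the groups overlapping. The other probe sets stayed under 200 on every array and were not tested, with mean log2 changes of -0.52 (1417603_at) and 0.30 (1457350_at). In triCH1flox1 and triCH1flox2, 1417603_at had -0.83 and -1.75, against 1.17 and 1.61 for 1417602_at. The probe sets of Per2 thus differ in sign, at signals near the floor. The tested probe set reached a signal of 200 on 3 of the 16 arrays, the DP arrays of both triCH1 lines and TSA_DP of triCH1flox1 (270). It thus entered the test only through arrays with dipyridyl, so its p-values for dipyridyl are no independent support for a rise.

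Nr1d1, which encodes REV-ERBα (1426464_at), had signals of 127, 118, 345 and 251 with dipyridyl, and of 185, 35.6, 64.6 and 183 with EtOH in triCH1flox1, triCH1flox2, flox1 and flox2. The change was 0.68 (95% interval -0.12 to 1.48, adjusted p = 0.523), and the groups overlapped. This probe set reached a signal of 200 only on the DP arrays of both flox lines and the TSA array of flox2 (217). No EtOH array reached it, so the filter favoured a rise. Of the 6 probe sets of Per3, a period gene, 3 were tested, each with 2 to 4 arrays at or above 200. Their changes with dipyridyl were 0.47, -0.61 and -0.52, so the probe sets differ in sign, and none passed (adjusted p between 0.482 and 0.711).

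Dbp is a direct output gene of CLOCK and BMAL1, and its probe set 1418174_at had DP signals of 258 and 263 in the triCH1 lines and of 181 and 176 in the flox lines. The EtOH signals were 118 and 189.9 in the triCH1 lines and 328 and 199.8 in the flox lines. This probe set was thus higher with dipyridyl in both triCH1 lines and lower in both flox lines. The difference of the responses was 1.05 (unadjusted p = 0.0396, adjusted p = 0.965), which did not pass. The other Dbp probe set (1438211_s_at), at or above 200 on all arrays, gave a difference of -0.01 for the same comparison. It was lower with dipyridyl in all 4 lines, by log2 changes of -0.18 in triCH1flox1, -0.12 in triCH1flox2, -0.26 in flox1 and -0.025 in flox2. The 2 probe sets thus differ in sign in the triCH1 lines.

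In the 3 remaining comparisons limma called 0 of the 12 probe sets. At an unadjusted p under 0.05 there were 2 for the difference between classes in the dipyridyl response, Bhlhe40 and Dbp, beside 4.91% of all tested probe sets at that p (0.0151% at the adjusted p). There were also 2 for the dipyridyl response under TSA minus that without, beside 5.56% of all (0.256% at the adjusted p). For the classes averaged over the treatments there were 0, beside 9.93% of all (0.0854% at the adjusted p, 0.0151% higher and 0.0704% lower).

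For 18 other genes of the clock 60 probe sets were taken, and 41 of these from 14 genes were tested. With dipyridyl over the 4 lines 6 of the 41 were higher, where 1.08% of all tested probe sets were higher, and 1 was lower (0.111% of all). The 6 were 4 of the 6 tested probe sets of Rora, the single one of Ciart and 1 of 6 of Gsk3b, and the lower one was 1 of 5 of Csnk1d. Rora encodes an activator that competes with the REV-ERB proteins for the same DNA element, Ciart (Chrono) a repressor of CLOCK and BMAL1, and Gsk3b and Csnk1d are kinases that act on clock proteins.

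Rora (1420583_a_at) had signals of 252 in triCH1flox1, 360.2 in triCH1flox2, 646 in flox1 and 509 in flox2 with dipyridyl, against 167, 35.3, 151 and 134 with EtOH. Every DP signal was above every EtOH signal, and the rise was 2.90-fold (log2 1.54 ± 0.27, SE, adjusted p = 0.0063). The other 3 called probe sets of Rora rose by 1.02 to 1.30 (log2), a further one had 1.22 (adjusted p = 0.0767), and the last had 0.06 (adjusted p = 0.962). Of the other 3 called ones, 1436326_at lost its call in 12 of 14 alternative settings, 1455165_at in 10 of 14 and 1424034_at in 4 of 15. The probe set 1420583_a_at lost its call in 3 of 14, among them the settings without flox1 (log2 1.49) and without triCH1flox2 (log2 1.09). Under TSA the dipyridyl response of this probe set was smaller by 1.87 (log2, 95% interval of the difference -2.69 to -1.05, unadjusted p = 0.000201, adjusted p = 0.0624), which did not pass. TSA alone raised this probe set by 1.23 (log2, limma, adjusted p = 0.00424), and the other 3 called ones had TSA changes of 0.56 to 0.88. With both agents 1420583_a_at was still above EtOH in all 4 lines, by a mean log2 change of 0.895. The TSA level and the shared EtOH arrays thus enter the difference. Under TSA the dipyridyl change of this probe set was -0.33 (adjusted p = 0.974). For the other 3 called ones it was -0.42 (1436326_at, adjusted p = 0.938), -0.19 (1455165_at, adjusted p = 0.983) and 0.17 (1424034_at, adjusted p = 0.983). None passed, and of the called ones only 1424034_at was above 0. The dipyridyl response of these 3 was also smaller under TSA. The difference was -1.44 for 1436326_at (adjusted p = 0.145) and -1.49 for 1455165_at (adjusted p = 0.36). For 1424034_at its 95% interval was -1.64 to -0.36 (adjusted p = 0.496), and none of these differences passed.

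Ciart (1435188_at) had signals of 310.1, 548, 357 and 377 with dipyridyl in triCH1flox1, triCH1flox2, flox1 and flox2. The EtOH signals were 132, 202, 69.0 and 215 in the same order of lines. The groups did not overlap, and the rise was 2.26-fold (log2 1.17, adjusted p = 0.00863). Without the flox1 EtOH array, the lowest of the 4, it was 0.93 and did not pass (adjusted p = 0.0591), nor did it without the line flox1, triCH1flox1 or triCH1flox2 (adjusted p 0.203, 0.0737 and 0.204). Gsk3b (1454958_at) had signals of 1656, 2132, 1680.0 and 2617 with dipyridyl, against 1535, 1284, 1067 and 1356 with EtOH (log2 0.59, adjusted p = 0.0364). This call was lost in 7 of 14 alternative settings, the one without the flox1 EtOH array among them. The other tested probe sets of Gsk3b had changes of -0.18 to 0.23, and none passed. The called Csnk1d probe set (1437690_x_at) fell by 0.60 on the log2 scale (adjusted p = 0.0304), while another of the same gene had 0.44 (1418889_a_at, adjusted p = 0.157), so the probe sets of Csnk1d differ in sign. Without the flox1 EtOH array the change of the called probe set was -0.48 and did not pass (adjusted p = 0.186).

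**Figure D4:**
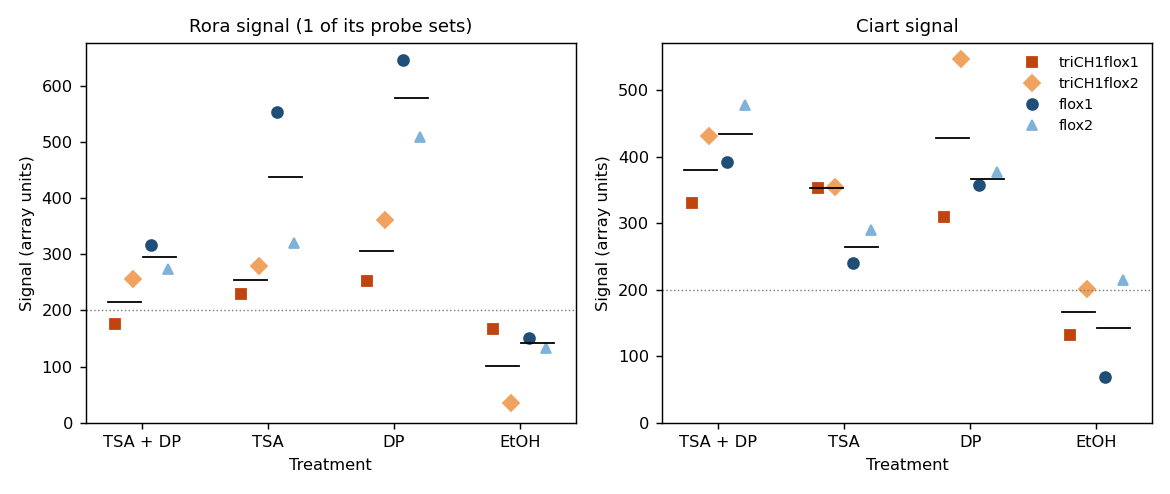
Signals (linear scale, from 0) of Rora (1420583_a_at) and Ciart (1435188_at) on each of the 16 arrays by treatment and line, with black bars at the mean of the 2 lines of a class and a dotted line at 200. Every DP array lies above every EtOH array for both genes, with the lowest DP signals at 252 and 310.1.

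With trichostatin A 7 of the 41 probe sets of the other clock genes were higher and 6 lower, beside the 12.3% and 9.9% of all tested probe sets. The higher ones belonged to Csnk1e, Nfil3, Rora, Arntl and Ciart, and the lower ones to Csnk1d, Timeless, Clock and Nono. For Arntl, which encodes BMAL1, the 1 probe set tested rose by 0.72 (log2, adjusted p = 0.0109). Of the 4 tested probe sets of Clock, which encodes its partner, 1 was called (log2 -0.49, adjusted p = 0.0247), and the others had 0.10, -0.03 and -0.44. The Clock call was lost without any 1 of the 4 lines (adjusted p 0.0628 to 0.207). That of Nono, 1 of 4 probe sets, was lost in 10 of 13 alternative settings, and 1 of the 2 Rora calls in 8 of 14. In the flox lines 2 of the 41 were higher with dipyridyl, both of Rora, where 0.875% of all tested probe sets were higher. Neither kept its call without the flox1 EtOH array. In the triCH1 lines limma called 0 of the 41, with 11 at an unadjusted p under 0.05, beside 4.51% of all tested probe sets at that p. Some of the 11 belonged to the same gene, Rora or Csnk1d, and those of Csnk1d differed in sign. For the difference between classes limma called 0, with 0 at an unadjusted p under 0.05, beside 4.91% of all.

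The genes whose signal ran most like that of Bhlhe40 were named by Pearson's r of log2(signal + 50), each centred on its line, over the 16 arrays and against 19894 probe sets. They were Pnrc1 (r = 0.955), Rnf19a (0.946), Scd2 (0.940), Adm (0.938) and Tnfsf9 (0.937). Adm encodes the secreted peptide adrenomedullin and Tnfsf9 a ligand of the tumour necrosis factor family. The points share lines, treatments and array scaling, so these values only describe the likeness. Each of the 5 was higher with dipyridyl and lower with trichostatin A past the threshold, which the choice by likeness favours. Among the members, the closest to Bhlhe40 was Nr1d2 (r = 0.573) and the most opposite was Cry2 (r = -0.558).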

How the data were processed

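Per the labels, biotin-labelled target from total RNA was hybridised to 1 array per sample. The deposited values are probe set intensities from the statistical algorithm of Affymetrix, which the authors scaled to a 2% trimmed mean of 500 (scaling factors 4.36 to 6.20, backgrounds 102 to 235, per the labels). The trimmed means were checked and met the target. How the images were handled is not given in the sources used here. Of 45101 probe sets, 34945 had a single gene symbol in the platform annotation and were kept; 932 had several and 9160 had none, and 64 were controls. The annotation can be old. No pair of arrays was identical (0 pairs), and 0 columns were left over.

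Signals were analysed as log2(signal + 50) where a probe set reached 200 on at least 2 arrays, which gave 19895 probe sets of 11481 genes. Models were fitted with limma 3.58.1 (R 4.3.3) to all 16 arrays: a mean for each of 8 groups, the line within its class as a further term, and empirical Bayes variances with a trend (6 residual and 9.6 prior degrees of freedom). Tests were two-sided, and p-values were adjusted by Benjamini and Hochberg over all tested probe sets. The classes were compared on line means, 2 against 2. The line is a term because each line was given all 4 treatments; deviations from the group means correlated at 0.105 to 0.275 between arrays of the same flox line, at 0.0454 to 0.317 between arrays of the same triCH1 line, and at -0.0172 to 0.137 between same-numbered lines of different classes. In the comparisons of treatments the line term takes out differences in level between lines. Their p-values thus measure how the changes differ between the 2 lines of a class, which are of unlike genotype. The p-values for the classes over all treatments measure the spread between line means. Neither kind measures the spread between repeat cultures. The number of arrays limits the precision.

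The members, the other clock genes and the motifs were chosen with earlier results of these data known. The text names every member, the other clock genes and the Hes and Hey relatives with a probe set past the threshold, the 5 genes most like Bhlhe40, and Crebbp and Ep300. Plots were made in Python 3.11.15 with matplotlib 3.10.9.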

Additional observations from a re-analysis of the deposited data

How the results depend on the processing

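Under 15 alternatives (other pseudocounts, filters, quantile normalization, no variance trend, no line term, 1 probe set per gene, the array series as a term, and leaving out lines or arrays), Bhlhe40 stayed past the threshold with dipyridyl over the 4 lines (log2 1.75 to 2.02), in the flox lines (2.41 to 2.90) and with trichostatin A (-1.41 to -1.04). The difference between classes in its dipyridyl response lay between -1.77 and -1.28, with adjusted p from 0.117 to 0.784. In the triCH1 lines the count of members called was 0, not 1, with a pseudocount of 16 (adjusted p of Bhlhe40 0.0501), without the replicate block of the line (0.132), without the variance trend (0.29) and with the array series as a term (0.2). Leaving out 1 line gave 0 to 1 there. For the dipyridyl response under TSA the count was 0 without the variance trend (adjusted p of Bhlhe40 0.08), and 0 to 1 on leaving out 1 line. With trichostatin A 4 or 5 members passed. The Bhlhe40 difference between classes over all treatments, which was not called, turned to 0.083 without the flox2 DP array, which drops the DP arrays of every line, and ran from -0.29 to 0.025 on leaving out 1 line, with 0.025 without triCH1flox2; the cause was not tested. The number of all probe sets that passed moved more than that of the members. For the dipyridyl response over the 4 lines it was 236, and 126 without triCH1flox2, 139 without flox1 and 390 without flox2. In the triCH1 lines it was 83, and 24 without the variance trend, 47 without the replicate block or with the array series as a term, 38 without triCH1flox1 and 16 without triCH1flox2. In the flox lines it was 204, and 116 without the variance trend, 107 without the flox1 EtOH array, 69 without flox1 and 525 without flox2. For the difference between classes it was 3, and between 0 and 40, the highest without flox2. With trichostatin A it was 4409, and at least 2489, the lowest without triCH1flox2. For the dipyridyl response under TSA it was 27, and at least 6, without the variance trend. For that response minus the one without TSA it was 51, and at least 9, without triCH1flox2. For the classes over all treatments it was 17, and between 3 and 402, the highest without flox2. Signals near 200 limit Per2, Per3 and Nr1d1, which reached that level on 2 to 4 arrays per probe set.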

Other observations

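The Hes and Hey genes encode basic helix-loop-helix relatives of Bhlhe40, many of which are repressors that act in the Notch pathway. Of 11 probe sets of 7 such genes, 5 from 4 genes were tested. With dipyridyl limma called 0 of the 5, with 1 at an unadjusted p under 0.05, beside 11.8% of all tested probe sets at that p. With trichostatin A 2 of the 5 were higher, Hey1 (log2 0.86, adjusted p = 0.00816) and 1 of 2 probe sets of Hes6 (log2 0.68, adjusted p = 0.0463), beside 12.3% of all tested probe sets. The other Hes6 probe set had 0.25 (adjusted p = 0.398), and the Hes6 call was lost in 8 of 14 alternative settings and that of Hey1 in 2 of 15.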
